A study of Mus musculus with 8 samples.

Results

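Nonreceptor tyrosine kinases are signalling enzymes that stand inside the cell, often below a receptor or an integrin, and pass its signal on by phosphorylating tyrosines on other proteins. Src, Fyn, Yes1 and Lyn belong to the Src family, Syk binds the phosphorylated tails of immune receptors, Ptk2 and Ptk2b (FAK and Pyk2) act at focal adhesions and below calcium signals, and Jak1 and Jak2 serve cytokine receptors. Their activity is set largely by their own phosphorylation and by their binding partners, neither of which an mRNA count measures. Expression of these 9 genes was examined in the pancreas of mice with and without Bach2, a transcriptional repressor best known from lymphocytes. The 9 genes were taken by gene name from the 21434 genes of the deposited table, and each was found there. All 9 had enough counts to be among the 12820 genes tested, which was the condition for a test and is no result.

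The study compared Bach2KO mice, a constitutive whole-body knockout on the line C57BL/6N-Bach2tm1b(EUCOMM)Wtsi/leg, with Bach2WT mice. The RNA-seq libraries came from homogenized pancreas of 4 mice per genotype, 2 females (mice 1 and 2) and 2 males (mice 3 and 4), all untreated and 18 weeks old. Since the knockout covers the whole body and the tissue was not sorted, a difference in the pancreas can come from any of its cells, and in such bulk tissue fewer cells of a type and less RNA per cell cannot be told apart. The study also ran peptide arrays for kinase activity in pancreas. Its text names Src, Lyn, Yes1, Syk, Ptk2, Ptk2b and Zap70 among the tyrosine kinases that it reports as activated in Bach2KO mice. The array data were not analysed here, so the question taken up was what the mRNA of these kinases did in the same tissue.

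The libraries held 72299745 to 172029360 counts on genes, of which the 30 most abundant genes took 90.0% to 92.3%. The 9 kinases together made up 0.00148% to 0.00274% of a library, so that their counts were modest in spite of the depth, from 9 for Yes1 in Bach2WT mouse 2 to 1366 for Jak1 in Bach2KO mouse 4. Bach2 itself had 3 to 16 counts in Bach2KO and 4 to 31 in Bach2WT libraries, which overlap and do not check the genotype labels, so each library was taken by its label. The 9 acinar markers, Cpa1 and Ctrb1 among them, summed to 322148 to 442509 CPM (counts scaled to a common library size), as the labelled tissue implies.

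The kinases fell into a higher and a lower set by level. In FPKM, which divides by gene length and so allows genes to be compared, Jak1 was the highest at 0.926 ± 0.205 (SD, n = 8 libraries of both genotypes), followed by Src at 0.832 ± 0.144, Fyn at 0.696 ± 0.156 and Ptk2b at 0.455 ± 0.0892. These 4 genes lay at percentiles 63.1 to 76.2 of the genes tested and carried most of the summed FPKM of the 9, with mean shares of 26.5% for Jak1, 24.0% for Src, 19.9% for Fyn and 13.2% for Ptk2b. Lyn was in the middle at 0.228 ± 0.0588 FPKM. The lower set held Jak2 at 0.112 ± 0.0307, Ptk2 at 0.101 ± 0.0302, Yes1 at 0.0682 ± 0.0406 and Syk at 0.0578 ± 0.0285 FPKM, the last at percentile 16.7. Of the 8 neighbouring pairs in this order, only Ptk2b and Lyn had ranges that did not overlap, with Ptk2b above Lyn in 8 of 8 libraries, while Jak2 exceeded Ptk2 in 4 of 8 and Jak1 exceeded Src in 5 of 8. Pairs farther apart in the order could still separate, as the lowest values of Jak1 and Src, 0.674 and 0.673 FPKM, lay above the highest of Ptk2b at 0.577. The 9 genes summed to 3.50 ± 0.481 FPKM in Bach2KO and 3.45 ± 0.410 in Bach2WT pancreas (SD, n = 4 each). The plot of the levels sets them beside 4 relatives, of which Tnk2 and Csk had means of 1.08 and 1.04 FPKM, above Jak1.

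**Figure D1:**
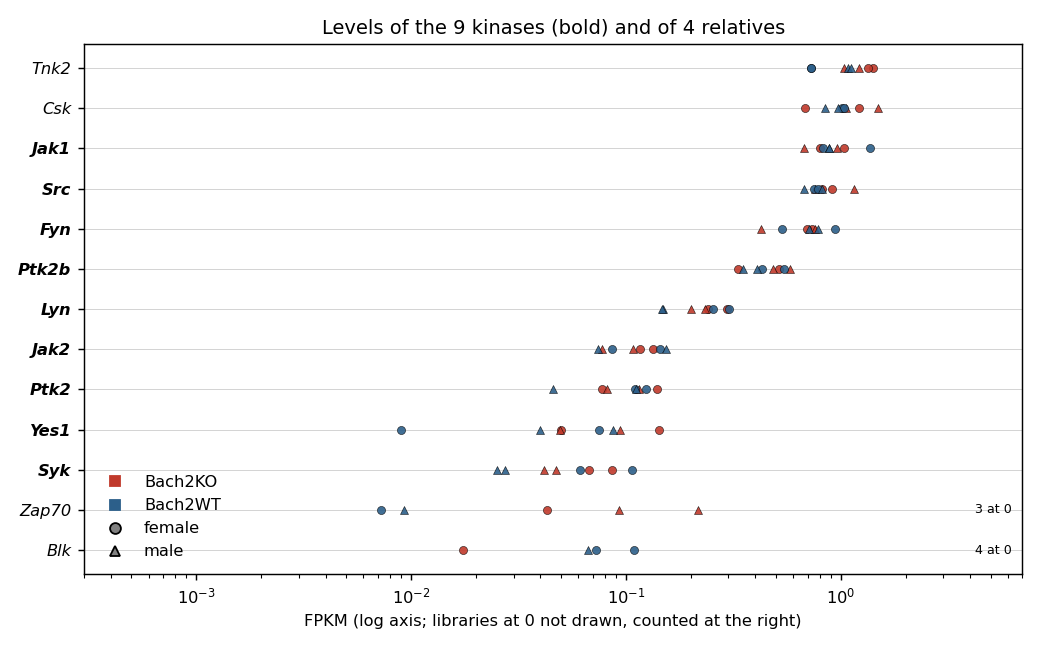
FPKM on a log axis of the 9 kinases and of their relatives Tnk2, Csk, Zap70 and Blk (vertical axis), a point per library coloured by genotype and shaped by sex, with the 9 in bold and libraries at 0 counted at the right. Jak1, Src, Fyn and Ptk2b lie between 0.455 and 0.926 FPKM on average, and Jak2, Ptk2, Yes1 and Syk at or below 0.112.

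None of the 9 kinases differed between the genotypes past the threshold. In edgeR's quasi-likelihood test with Benjamini-Hochberg adjustment over all 12820 genes, 0 of 9 had an adjusted p under 0.05, where 0.0078% of all genes were called, and DESeq2 and limma also called 0 of 9. At an unadjusted p under 0.05 the count was 0 of 9 against 7.46% of all genes, and the 4 Bach2KO values lay apart from the 4 Bach2WT values for 0 of 9 against 4.49% of all genes. Fold changes above 0 were found for 6 of 9 kinases against 54.7% of all genes, with a median log2 fold change of 0.17 beside 0.05 for all genes tested. The 95% intervals of the fold changes are plotted for each kinase. The narrowest was that of Src and the widest that of Yes1.

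**Figure D2:**
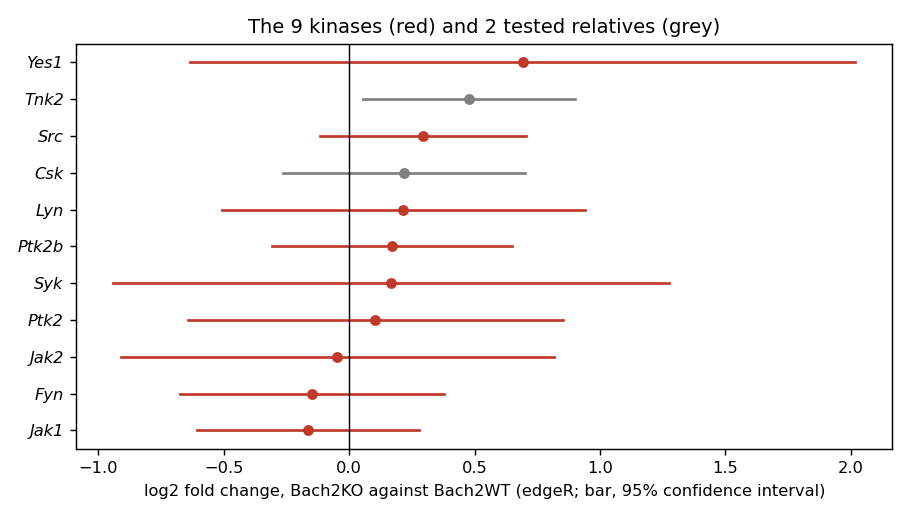
Log2 fold change of Bach2KO against Bach2WT (horizontal axis) for the 9 kinases and the tested relatives Tnk2 and Csk, the point being the edgeR estimate, the bar its 95% interval and red the 9 described here. All 9 red intervals include 0, from the narrow one of Src at 0.29 to the wide one of Yes1 at 0.69.

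Src, the founding member of its family, had the smallest p of the 9. Its CPM (scaled by TMM factors) were 3.77, 4.13, 3.37 and 5.13 in Bach2KO mice 1 to 4 and 3.36, 3.47, 3.59 and 2.97 in Bach2WT mice 1 to 4. Bach2KO mice 1, 2 and 4 were above all Bach2WT mice, Bach2KO mouse 3 was below Bach2WT mice 2 and 3, and the groups overlapped. The means were 4.10 ± 0.753 and 3.35 ± 0.269 CPM (SD, n = 4), a log2 fold change of 0.29 (SE 0.19, adjusted p = 0.788). In linear terms that is 1.23-fold with a 95% interval from 0.923 to 1.63, so a rise above 1.63-fold lies outside the interval. Src took 25.9% ± 2.68 of the summed FPKM of the 9 kinases in Bach2KO and 22.0% ± 2.22 in Bach2WT libraries.

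Fyn, a broadly expressed Src family kinase also known from T cell receptor signalling, had CPM of 3.38, 3.13, 1.89 and 3.37 in Bach2KO mice 1 to 4 and 2.36, 4.14, 3.12 and 3.44 in Bach2WT mice 1 to 4. Bach2KO mouse 3 was the lowest library and Bach2WT mouse 2 the highest, with the remaining 6 in between and mixed by genotype. The log2 fold change was -0.15 (SE 0.24, adjusted p = 0.941), with an interval from 0.627 to 1.30-fold. Counts of a gene listed on the opposite strand inside Fyn, Gm16364, came to 337 and 42 in its entries against 3044 for Fyn over the 8 libraries, and the strand setting of the counting is not given in the sources used here, so a small part of the Fyn count is uncertain.

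Yes1, the ubiquitous close relative of Src, varied more between libraries than any other of the 9. Its CPM were 1.12, 0.386, 0.713 and 0.378 in Bach2KO mice 1 to 4 and 0.577, 0.0686, 0.661 and 0.302 in Bach2WT mice 1 to 4, a 16.4-fold span from 9 to 182 counts. Bach2WT mouse 2 was far below the rest and Bach2KO mouse 1 above it, yet the other 6 libraries interleaved. The log2 fold change of 0.69 was the largest of the 9 and also the least certain (SE 0.61, adjusted p = 0.865), with an interval from 0.645 to 4.05-fold. It fell to 0.28 without Bach2KO mouse 1 and to 0.33 without Bach2WT mouse 2, and rose to 1.06 without Bach2WT mouse 3.

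Lyn, the Src family kinase of B cells and myeloid cells, had CPM of 1.27, 1.01, 0.832 and 0.974 in Bach2KO mice 1 to 4 and 1.25, 1.05, 0.613 and 0.605 in Bach2WT mice 1 to 4. The female libraries of the genotypes matched closely, and the males of Bach2WT were the lowest of all. With means of 1.02 ± 0.181 and 0.881 ± 0.325 CPM, the log2 fold change was 0.22 (SE 0.33, adjusted p = 0.938), and the interval ran from 0.703 to 1.92-fold.

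The genes that set Src family activity gave the same picture. Of the 12 listed regulators, such as Csk, which phosphorylates the inhibitory tail tyrosine, and the phosphatases that remove that phosphate, 11 were tested. Fold changes were above 0 for 5 and below 0 for 6, with a median log2 fold change of -0.02, and 0 of 11 reached an unadjusted p under 0.05. The smallest p belonged to Ptprj, a receptor phosphatase, with a log2 fold change of -0.30 (SE 0.28, adjusted p = 0.878), followed by Csk with 0.22 (SE 0.22, adjusted p = 0.896).

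**Figure D3:**
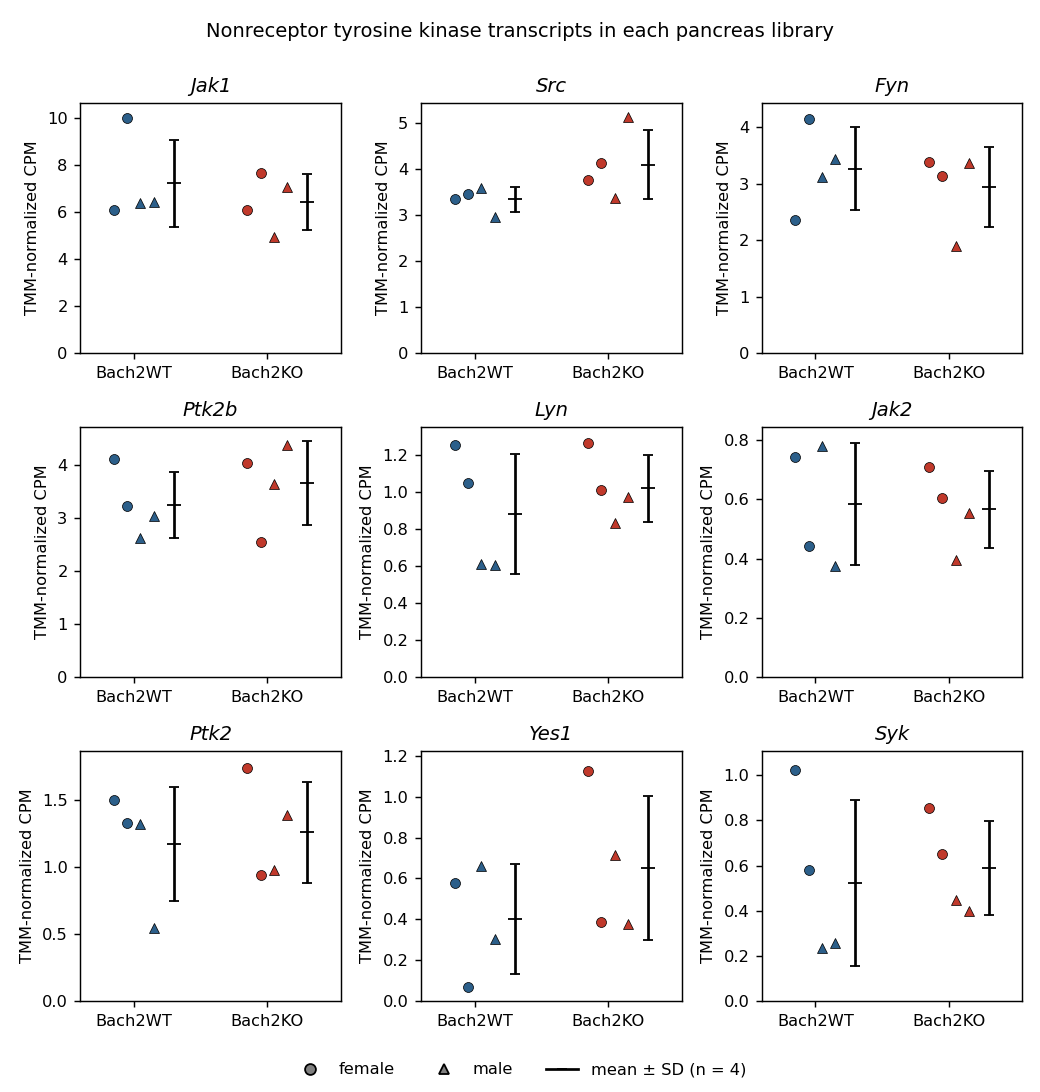
TMM-normalized CPM of each of the 9 kinases, with a point per mouse shaped by sex and the mean ± SD of the 4 mice beside each genotype. The genotypes overlap in all 9 panels, and the lowest library of Fyn at 1.89 CPM and the highest of Jak1 at 10.0 CPM stand off from the rest of their group.

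Syk, which docks on the phosphorylated motifs of B cell and Fc receptors, was the lowest of the 9 in FPKM. Its CPM were 0.852, 0.652, 0.449 and 0.399 in Bach2KO mice 1 to 4 and 1.02, 0.579, 0.237 and 0.259 in Bach2WT mice 1 to 4, from 18 to 138 counts. The 4 females were the 4 highest libraries whatever their genotype, and the genotypes overlapped. The log2 fold change was 0.17 (SE 0.51, adjusted p = 0.972), with an interval from 0.521 to 2.42-fold. Left out of the test for low counts was Zap70, the T cell relative of Syk, with 22, 0, 50 and 55 counts in Bach2KO mice 1 to 4 and 2, 0, 4 and 0 in Bach2WT mice 1 to 4. Its sums were 127 and 6 counts, with Bach2KO mouse 2 at 0 like Bach2WT mice 2 and 4, and a 0 allows up to 3 counts. Tested without the count filter, Zap70 had a log2 fold change of 4.25 in edgeR, with an unadjusted p of 0.00294 and an adjusted p of 0.273. DESeq2 gave an unadjusted p of 0.00108 and an adjusted p of 0.123, so Zap70 passed the adjusted threshold in neither. T cell markers summed to 0.688 to 2.00 CPM in Bach2KO and 0.0576 to 1.81 in Bach2WT libraries, with the lowest sum in Bach2WT mouse 4 and the highest in Bach2KO mouse 1; their part in the Zap70 counts was not tested.

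Around Syk stood 21 listed adaptors, receptor chains and partner kinases, of which 17 were tested. Fold changes were above 0 for 12 and below 0 for 5 with a median log2 fold change of 0.49, and 2 had an unadjusted p under 0.05, both higher in Bach2KO, against 3.9% of all genes. Fcer1g, the signalling chain of Fc receptors, had 0.624, 1.70, 2.55 and 1.18 CPM in Bach2KO mice 1 to 4 and 0.910, 0.526, 0.341 and 0.144 in Bach2WT mice 1 to 4. Bach2KO mouse 1 was below Bach2WT mouse 1 and the other Bach2KO mice were above every Bach2WT mouse, with a log2 fold change of 1.64 (SE 0.53, adjusted p = 0.531). Lat, the scaffold that ZAP-70 phosphorylates, had 59, 12, 33 and 26 counts in Bach2KO mice 1 to 4 and 8, 6, 0 and 0 in Bach2WT mice 1 to 4. It was the only gene of this list whose genotypes did not overlap, where 2.57% of all genes were apart and higher in Bach2KO, and its adjusted p was 0.618. Beside these values, the 6 leukocyte markers, none of them at 0 in every library, summed to 9.07 to 13.3 CPM in Bach2KO and 4.15 to 12.1 in Bach2WT libraries, and 5 of the 6 had a fold change above 0. Cd52 ranged from 0.881 to 1.24 CPM in Bach2KO and from 0.144 to 0.777 in Bach2WT libraries without overlap, with a log2 fold change of 1.05 (SE 0.43, adjusted p = 0.641). Ptprc (CD45), the marker with a fold change below 0, ranged from 0.264 to 1.05 CPM in Bach2KO and from 0.290 to 0.799 in Bach2WT libraries. The part of these markers in the values of the list was not tested.

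Ptk2 encodes focal adhesion kinase, which integrins switch on, and Ptk2b its calcium-responsive relative. Ptk2 had CPM of 1.74, 0.942, 0.977 and 1.39 in Bach2KO mice 1 to 4 and 1.50, 1.33, 1.32 and 0.547 in Bach2WT mice 1 to 4. Bach2WT mouse 4 was the lowest library, and the other Bach2WT mice lay inside the Bach2KO range. The log2 fold change was 0.10 (SE 0.35, adjusted p = 0.975, interval 0.640 to 1.80-fold). Ptk2b had CPM of 4.03, 2.55, 3.65 and 4.37 in Bach2KO mice 1 to 4 and 4.11, 3.22, 2.62 and 3.04 in Bach2WT mice 1 to 4. The female values favoured Bach2WT and the male values Bach2KO, and together they gave a log2 fold change of 0.17 (SE 0.22, adjusted p = 0.928, interval 0.809 to 1.57-fold). Ptk2b was the more abundant of the pair in each library, by CPM and by FPKM.

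Of 23 listed focal adhesion partners of these kinases, 21 were tested. Fold changes were above 0 for 13 and below 0 for 8 with a median log2 fold change of 0.10, close to the 0.05 of all genes, and none passed the adjusted threshold. Tln2, a talin that links integrins to actin, had the smallest p, with a log2 fold change of -0.69 (SE 0.24, adjusted p = 0.560) and 1.74 ± 0.359 CPM in Bach2KO against 2.80 ± 0.506 in Bach2WT mice. Grb2, the adaptor that ties phosphorylated FAK to Ras signalling, had 3.90, 3.73, 5.01 and 3.84 CPM in Bach2KO mice 1 to 4 and 3.21, 3.50, 2.69 and 2.71 in Bach2WT mice 1 to 4. These values did not overlap, with a log2 fold change of 0.44 (SE 0.19, adjusted p = 0.649). Its partner Sos1 had 0.92 (SE 0.42, adjusted p = 0.663). Not overlapping were 2 of 21 genes of the list, Grb2 and Asap1, both higher in Bach2KO, where 2.57% of all genes did so in that direction.

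Jak1 and Jak2 pass on cytokine and interferon signals by phosphorylating Stat factors. Jak1 had CPM of 6.10, 7.69, 4.95 and 7.08 in Bach2KO mice 1 to 4 and 6.10, 10.0, 6.40 and 6.44 in Bach2WT mice 1 to 4. Without the high Bach2WT mouse 2, the other Bach2WT mice lay inside the Bach2KO range. The log2 fold change was -0.16 (SE 0.21, adjusted p = 0.925, interval 0.656 to 1.21-fold). Jak2 had CPM of 0.710, 0.604, 0.396 and 0.554 in Bach2KO mice 1 to 4 and 0.744, 0.442, 0.780 and 0.374 in Bach2WT mice 1 to 4. The Bach2KO range lay wholly inside the Bach2WT range, and the log2 fold change was -0.05 (SE 0.40, adjusted p = 0.991, interval 0.532 to 1.76-fold). Jak1 exceeded Jak2 in FPKM in each library, 0.926 against 0.112 on average.

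The receptors, Stat factors and feedback regulators of the Jak pathway were read in the same test. Of 29 listed receptors that use Jak1 or Jak2, 26 were tested, with fold changes above 0 for 18 and below 0 for 8 and a median log2 fold change of 0.47. At an unadjusted p under 0.05, 5 were higher in Bach2KO and 0 lower, against 3.9% and 3.56% of all genes, and 0 passed the adjusted threshold. Csf2ra, the GM-CSF receptor chain, had 0.500, 1.20, 0.872 and 1.01 CPM in Bach2KO mice 1 to 4 and 0.400, 0.320, 0.306 and 0.489 in Bach2WT mice 1 to 4. The Bach2KO values were all above the Bach2WT values, the nearest by a small margin, and the log2 fold change was 1.24 (SE 0.39, adjusted p = 0.531). Il6ra, the interleukin 6 receptor, ranged from 0.991 to 2.82 CPM in Bach2KO and from 0.806 to 0.983 in Bach2WT libraries, again with no overlap, and its log2 fold change was 0.88 (SE 0.33, adjusted p = 0.606). Csf2ra and Il6ra are receptors of myeloid cells among others, and the 10 macrophage markers summed to 24.2 to 37.7 CPM in Bach2KO and 17.6 to 32.6 in Bach2WT libraries, with none of them at 0 in every library; their part was not tested.

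Of 7 Stat factors, 6 were tested, with fold changes above 0 for 4 and below 0 for 2 and a median log2 fold change of 0.20. Of the 6, 1 had an unadjusted p under 0.05, higher in Bach2KO, against 3.9% of all genes. Stat3, which interleukin 6 signals reach, had a log2 fold change of 0.39 (SE 0.33) and Stat5b, of growth hormone and cytokine signals, 0.17 (SE 0.23), neither with an unadjusted p under 0.05. Of 16 listed feedback regulators, which include the Socs proteins, 15 were tested, 8 were above 0 and 7 below, the median log2 fold change was 0.01, and 0 reached an unadjusted p under 0.05. Ptpn2, a phosphatase that acts on Jak1, had the smallest p of them, with a log2 fold change of 1.29 (SE 0.87, adjusted p = 0.796), followed by Socs7 with 0.31 (SE 0.22, adjusted p = 0.806). Cish, a target of Stat5, had 2.83 ± 2.12 CPM in Bach2KO and 4.30 ± 2.63 in Bach2WT mice (SD, n = 4), a log2 fold change of -0.61 (SE 0.50, adjusted p = 0.852).

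The rest of the class was read in the same test. Of 32 nonreceptor tyrosine kinases listed, 31 were in the table and 24 were tested, 15 of them not among the 9. Of those 15, 12 had a fold change above 0 and 3 below, with a median log2 fold change of 0.46, and 0 passed the adjusted threshold. An unadjusted p under 0.05 was found for 2, both higher in Bach2KO, against 3.9% of all genes. Of these 2, Tnk2 is described. Tnk2, the Cdc42-associated kinase ACK1, had 9.49, 8.81, 7.85 and 6.71 CPM in Bach2KO mice 1 to 4 and 4.74, 4.69, 6.98 and 7.20 in Bach2WT mice 1 to 4. Its females were well apart while Bach2KO mouse 4 fell below both Bach2WT males, and the log2 fold change was 0.48 (SE 0.20, adjusted p = 0.639). The 7 kinases in the table that were not tested, Zap70 and Blk among them, had 6 to 133 counts over the 8 libraries. Blk, a B cell kinase, had 8, 0, 0 and 0 counts in Bach2KO mice 1 to 4 and 27, 26, 26 and 0 in Bach2WT mice 1 to 4. Its sums were 8 and 79 counts, and the genotypes overlapped. Tested without the count filter, Blk had an unadjusted p of 0.0241 and an adjusted p of 0.588 in edgeR. DESeq2 gave an unadjusted p of 0.0157 and an adjusted p of 0.399. B cell markers summed to 0.0264 to 1.93 CPM in Bach2KO and 0.320 to 4.87 in Bach2WT libraries, which overlap. All 3 of them that were tested had a fold change below 0, and their part in the Blk counts was not tested. Of the 7 kinases that the study's text on the peptide array names, 6 were tested at the mRNA level. All 6 had a fold change above 0, where 54.7% of all genes did, with a median log2 fold change of 0.19. An unadjusted p under 0.05 was found for 0 of the 6. Zap70, left out for low counts, had an unadjusted p of 0.00294 and an adjusted p of 0.273 in edgeR without the count filter. The array was run on male mice only, while these fold changes pool both sexes. Fold changes within each sex came from an edgeR fit of the sex and genotype groups on all 8 libraries. In the 2 males per genotype, the log2 fold changes of the 6 ran from 0.15 for Yes1 to 0.77 for Syk. Their unadjusted p in edgeR ran from 0.123 for Ptk2b to 0.869 for Yes1. In females the fold changes of the 6 ran from -0.15 for Ptk2b to 1.26 for Yes1, with Lyn, Syk and Ptk2 also below 0.

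Lyn and Syk stood out by sex. This comparison was chosen after the values had been seen. All 4 females exceeded all 4 males for 2 of the 9 kinases, Lyn and Syk, where 1.97% of all genes did so in that direction, and 0 of 9 did the reverse, against 0.967%. In a model with genotype and sex, Syk was higher in females by 1.25 on the log2 scale (SE 0.42, adjusted p = 0.890), with means of 0.776 and 0.336 CPM. Lyn was higher by 0.62 (SE 0.30, adjusted p = 0.890), with means of 1.15 and 0.756 CPM. Neither passed the adjusted threshold, which 0.0312% of all genes did. At an unadjusted p under 0.05 Syk was the only kinase of the 9, where 3.36% of all genes were higher and 1.93% lower in females. The other 7 kinases had overlapping sexes, with log2 differences from -0.05 for Yes1 to 0.38 for Ptk2.

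Marker genes of several cell types were also summed by sex in the same libraries. The plot of Syk and Lyn sets leukocyte and adipocyte markers beside them. Leukocyte markers summed to 7.58 to 13.3 CPM in females and 4.15 to 10.8 in males, which overlap. Of these 6 markers, 2 had an unadjusted p under 0.05, both higher in females, against 3.36% of all genes. B cell markers ranged from 0.169 to 4.87 CPM in females and 0.0264 to 0.751 in males, which overlap. Lymph node markers ranged from 0.930 to 11.2 and 0.403 to 1.57, which also overlap. The highest lymph node sum was that of Bach2KO mouse 1, and Bach2KO mouse 2 was the lowest female in both lists. Adipocyte markers summed to 3.36 to 11.1 CPM in females and 0.893 to 3.32 in males without overlap. All 4 tested had an unadjusted p under 0.05 and were higher in females, against 3.36% of all genes. Macrophage markers overlapped, at 24.2 to 32.6 CPM in females and 17.6 to 37.7 in males. The part of these markers in the sex difference of Syk and Lyn was not tested.

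**Figure D4:**
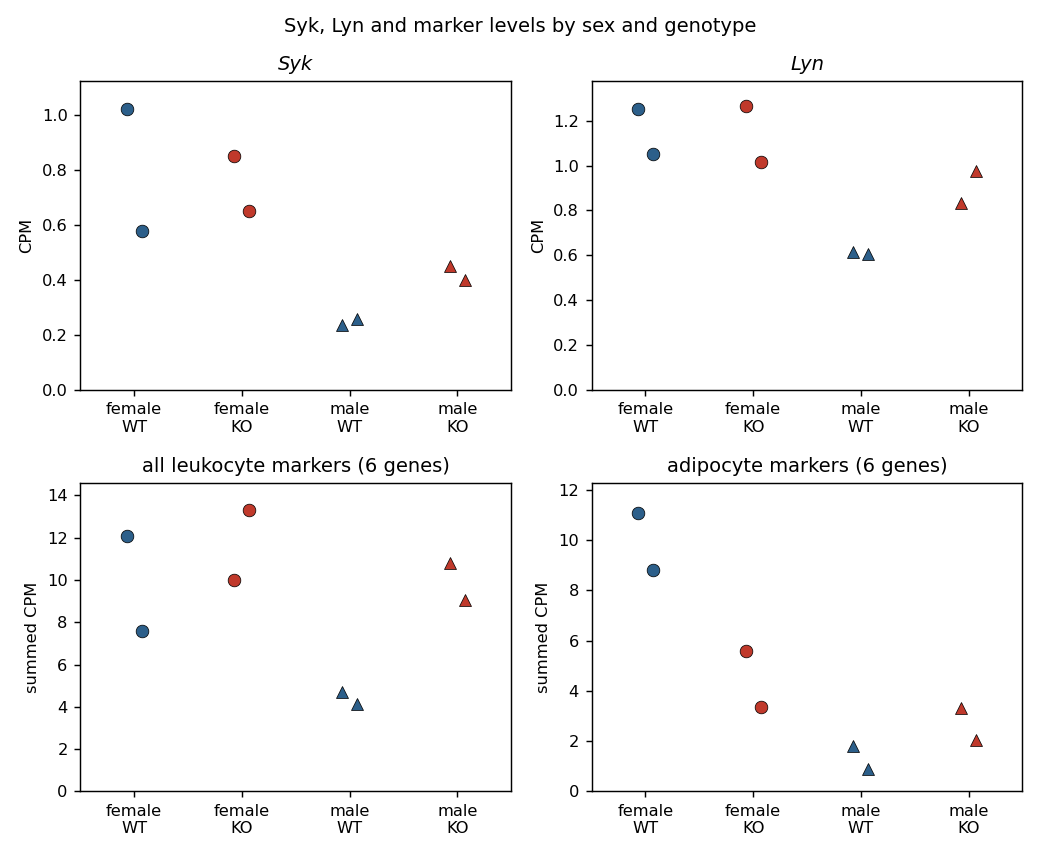
TMM-normalized CPM of Syk and Lyn and the summed CPM of leukocyte and adipocyte markers for each mouse, by sex and genotype, a point per library. The females lie above the males for Syk and Lyn, with means of 0.776 against 0.336 CPM for Syk, and the leukocyte sum falls to 4.69 and 4.15 CPM in the male Bach2WT mice.

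Within the sexes, 3 of the 9 kinases, Lyn, Syk and Ptk2b, had both male Bach2KO values above both male Bach2WT values, where 19.4% of all genes did so, and 0 had them below, against 17.4%. Their log2 fold changes in males were 0.57 for Lyn, 0.77 for Syk and 0.50 for Ptk2b and in females -0.01, -0.08 and -0.15. The test of the difference between the sexes gave adjusted p of 0.950 for Lyn, 0.938 for Syk and 0.892 for Ptk2b. At an unadjusted p under 0.05, 0 of 9 kinases had an interaction, where 6.14% of all genes did, and 0 genes were called after adjustment. The leukocyte marker sums in males were 10.8 and 9.07 CPM in Bach2KO against 4.69 and 4.15 in Bach2WT. In females these sums were 9.99 and 13.3 against 12.1 and 7.58. Their part in the values of Lyn, Syk and Ptk2b was not tested. In females, Src alone had both Bach2KO values above both Bach2WT values, against 21.9% of all genes, and 0 had them below, against 18.2%. Yes1 had the widest gap between the sexes' fold changes, 1.26 in females and 0.15 in males, with an interaction SE of 1.28 and an adjusted p of 0.953.

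Likeness of profiles across the 8 libraries was measured as the root mean square difference of log2 CPM centred on each gene's mean. Fyn and Jak1 were the closest pair at 0.196 and Yes1 and Jak1 the farthest at 1.29. Among all genes tested, the profile nearest to Src was that of Mark2 at 0.0967, nearest to Fyn that of Ahcyl at 0.0984, nearest to Jak1 that of Ebna1bp2 at 0.103 and nearest to Ptk2b that of Ece1 at 0.126. Jak2 was nearest to Uchl3 at 0.108, Lyn to Tbc1d14 at 0.148 and Ptk2 to Cnn3 at 0.166. Syk was nearest to Klf10 at 0.171 and Yes1 to Klhl24 at 0.192, against median distances over all genes of 0.832 and 1.16. These are descriptions over 8 libraries that share their depth and scaling.

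The genes lie on 8 chromosomes. In GRCm39 coordinates of the deposited table, Src is at chromosome 2, 157260364 to 157313782, Fyn at chromosome 10, 39244851 to 39441377, and Yes1 at chromosome 5, 32768515 to 32844401. Lyn is at chromosome 4, 3678115 to 3813122, and Jak1 on the same chromosome at 101009564 to 101122479. Syk is at chromosome 13, 52737209 to 52802828, Ptk2 at chromosome 15, 73076951 to 73295129, Ptk2b at chromosome 14, 66390706 to 66518501, and Jak2 at chromosome 19, 29229228 to 29290480. All values above are counts of whole genes, with isoforms not told apart. For 6 of the 9 genes a start site was listed in the RefSeq table used here (GRCm38.p6), and Syk alone had 2, which a gene-level count cannot tell apart. Because Syk was the kinase with the clearest split between the libraries, the 250 bases upstream of each of its starts are shown, 5′ to 3′ on the plus strand in lower case. The upper window has a GC content of 71.6% and the lower 47.6%.
Syk, chr13:52583187-52583436: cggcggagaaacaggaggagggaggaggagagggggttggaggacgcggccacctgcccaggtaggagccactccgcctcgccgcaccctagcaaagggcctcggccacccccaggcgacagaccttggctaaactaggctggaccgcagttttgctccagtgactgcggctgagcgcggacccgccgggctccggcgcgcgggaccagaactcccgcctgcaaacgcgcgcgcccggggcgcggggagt
Syk, chr13:52596632-52596881: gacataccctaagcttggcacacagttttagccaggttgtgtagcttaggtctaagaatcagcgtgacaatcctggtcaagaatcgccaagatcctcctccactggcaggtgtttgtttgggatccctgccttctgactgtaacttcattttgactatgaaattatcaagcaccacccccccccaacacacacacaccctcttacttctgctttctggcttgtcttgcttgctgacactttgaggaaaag

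Both strands of these windows and of the 5 others, for Src, Jak1, Yes1, Fyn and Jak2, were searched for the Maf recognition core TGAGTCA, which AP-1 also binds, for the longer Maf recognition element, which contains that core and which Bach2 binds with small Maf proteins, for the Stat site TTCNNNGAA and for the core of the interferon-stimulated response element. None of the 7 windows held any of the 4, where 4.463%, 0.1339%, 7.02% and 2.977% of 32851 promoter windows of the same length did. This says only that these letters are not in these windows.

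None of the 9 kinases was called under any other setting tried, and the plot by setting shows their fold changes gene by gene. Src ranged from 0.17 to 0.60, Yes1 from 0.27 to 1.06, Lyn from 0.07 to 0.48 and Ptk2b from 0.07 to 0.45 without a change of sign. Fyn, Syk, Ptk2, Jak1 and Jak2 each took both signs. Scaling by library totals alone raised the median over the genes tested from a log2 fold change of 0.05 to 0.35 and put all 9 kinases above 0. Each direction is thus relative to the scaling, and those of Fyn, Jak1 and Jak2 reversed with it.

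**Figure D5:**
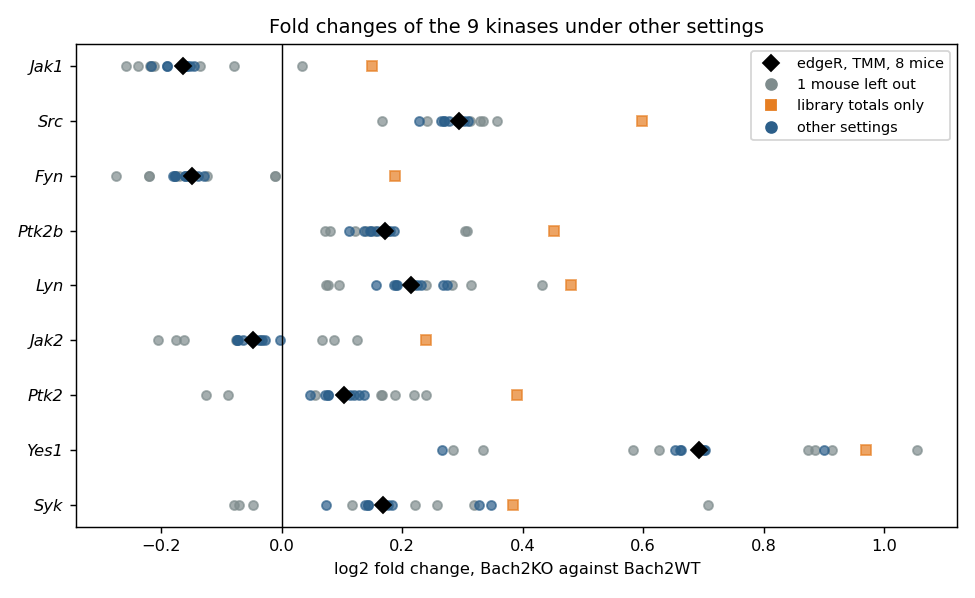
Log2 fold change of Bach2KO against Bach2WT (horizontal axis) for each of the 9 kinases under each setting, with the black diamond for edgeR on all 8 mice, grey for 1 mouse left out, orange squares for library totals and blue for other settings. Src stays between 0.17 and 0.60, while Fyn, Syk, Ptk2, Jak1 and Jak2 have points on both sides of 0.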

How the data were processed

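Total RNA of homogenized pancreas from 8 mice was made into poly(A) libraries and sequenced. Per the submitters' processing notes, fastp, HISAT2 2.2.1 and featureCounts 2.0.6 were used with the build mm39 (GRCm39), while the annotation and the strand setting are not given in the sources used here. The authors deposited 1 table with raw counts per gene and library, a normalized signal (counts divided by 1 size factor per library) and FPKM (that signal per gene length). Its gene length column was used for the length correction. The deposited table also holds test columns made by the authors (log2 ratios of the genotypes with their p-values), which were not used. All columns of library values were matched to a mouse by name.

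Counts were compared with edgeR 4.0.16 in R 4.3.3 (TMM, filterByExpr on genotype, quasi-likelihood test, no covariate, all 8 mice), with Benjamini-Hochberg adjustment over the 12820 of 21434 genes tested and a threshold of 0.05. Intervals are 95% intervals of that fit, and the SE is the log2 fold change divided by the root of its F value. DESeq2 1.42.0 and limma 3.58.1 (log2(FPKM + 0.1)) were alternatives, beside RLE size factors, library totals, library sizes without the 30 most abundant genes, other count filters, sex as a covariate, a replicate block, a gene length correction and leaving out each mouse. CPM are TMM-normalized, and log2 CPM used a prior count of 2. A count of 0 is given a floor of 3 counts, which covers counting error only. Among genes with counts in a library, 58.9% to 62.0% had an even count. The cause of this was not tested, and the floor takes no account of it. The library totals were 72299745 to 172029360 counts. Of these fits, only the edgeR fit on genotype was also run on simulated counts, with an outcome not reported here.

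The 9 kinases and all lists were chosen with earlier results of these data known. Named are each of the 9, from each list the genes with the smallest unadjusted p, Zap70 because the study names it, the genes nearest in profile, and Ptprc among the markers. Blk, Asap1 and Cd52 were named after their values were seen, and the comparison of Lyn and Syk between the sexes was chosen after the values were seen. Some genes that the rule would name are not reported here and not drawn.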

Additional observations from a re-analysis of the deposited data

Results flagged for a closer look

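Fyn in Bach2KO mouse 3 had 1.89 CPM, with 3.13 CPM in the next of its group, a gap of 0.831 of the group's range and just over Dixon's critical value for 4 samples. Jak1 in Bach2WT mouse 2 had 10.0 CPM, with 6.44 CPM in the next of its group and a gap of 0.913 of the range. With 9 kinases in each genotype, chance alone makes about 1 in 20 groups pass this limit. The fold change of Jak1 without that mouse is among the values given next.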

How the results depend on the processing

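No kinase of the 9 was called under any setting, and 149 of their 161 fold changes kept the direction given above. The other 12 reversed. With library totals alone these were Fyn at 0.19, Jak1 at 0.15 and Jak2 at 0.24, a scaling that shifted the median of all genes by 0.30 and made 97.1% of the genes at an unadjusted p under 0.05 higher, against 52.2%. Leaving out a mouse reversed Syk (-0.078 to 0.71; -0.070 without Bach2KO 1, -0.078 without Bach2WT 3, -0.048 without Bach2WT 4, and 0.71 without Bach2WT 1), Ptk2 (-0.09 without Bach2KO 1, -0.13 without Bach2WT 4), Jak1 (-0.26 to 0.034, the last without Bach2WT 2) and Jak2 (-0.21 to 0.13; 0.07 without Bach2KO 3, 0.09 without Bach2WT 1, 0.13 without Bach2WT 3). The lowest adjusted p of a kinase was 0.333, for Src at 0.60 with library totals. Over all genes, 1 was called, 73 with no count filter and 75 with DESeq2, but 0 with at least 10 counts in every library, with sex as a covariate, and with any mouse left out (0 to 0). Replicate numbers did not pair the mice: 1 of 4 same-numbered pairs correlated above 0.1, 1 Bach2KO mouse correlated best with its own number, and the replicate block called 0 genes and 0 of the 9. With at least 10 counts in every library, Yes1 was not tested. Ordered by CPM instead of FPKM, 7 of 9 kinases changed place. The sex difference of Syk ran from 0.99 to 1.42 and that of Lyn from 0.52 to 0.76 over 11 alternatives added after seeing the data, with lowest adjusted p of 0.461 and 0.598. The cause of these changes was not tested.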
